A study of Rattus norvegicus with 8 samples.

Results

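The receptors for the opioid peptides, for nociceptin and for galanin were followed in RNA from the dentate gyrus (DG) of female rats after status epilepticus (SE). The genes were Oprm1, Oprd1, Oprk1 and Oprl1, which encode the mu, delta, kappa and nociceptin receptors, and Galr1, Galr2 and Galr3, which encode the galanin receptors. They were taken as the non-control spots of the arrays that carry one of these 7 names, of 35199 names in all, which gave 29 of 43379 spots and 11 of 41012 probes. The rats were adult ovariectomized (OVX) Sprague-Dawley females of 150 to 200 g in which kainic acid, a glutamate receptor agonist, had induced SE. The 4 COS rats received oil and the 4 CES rats received estradiol (E2, labeled EB in the records). Both groups had lost the ovaries and had seizured, and rats without SE were not analysed here. The records give 4 doses of 2 μg of estradiol at intervals of 24 h, 2 of them ahead of SE and 2 following it, 16 mg/kg of kainic acid, and an SE of 5 h stopped by pentobarbital. The methods of the study give a lower dose of kainic acid, place all injections before SE and name diazepam, and these accounts could not be reconciled. The records do not state when the tissue was taken, while the methods give 24 h after SE for all groups and 2 h after seizures became continuous for the arrays, so the time of the levels below is not settled. Each of 4 two-colour arrays, all on a single slide, carried a pair of rats of the same group, with replicates 1 and 3 in Cy3 and replicates 2 and 4 in Cy5.

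Opioid and galanin receptors are G protein-coupled receptors on neurons. The mu, delta, kappa and nociceptin receptors and galanin receptors 1 and 3 couple to Gi and Go proteins, which lower cyclic AMP, open GIRK potassium channels and reduce transmitter release, while galanin receptor 2 also couples to Gq. In the DG, granule cells contain dynorphin and enkephalin, cut from the precursors encoded by Pdyn and Penk, and galanin is known to restrain seizures in models of SE. In a bulk sample such as these, fewer cells that carry a receptor and less RNA per cell cannot be told apart.

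The probes that read the receptors differ in where they lie, and 5 with a reading frame free of stop codons are shown. For Oprl1 and Oprm1 the levels below rest mostly or wholly on another probe, which is not among these 5. Positions are those of rn4, the build in the scanner files, and the sequences are those printed on the array, 60 bases each from 5′ to 3′, with no part set in capitals.
Galr1, chr18:78868153-78873595, minus strand: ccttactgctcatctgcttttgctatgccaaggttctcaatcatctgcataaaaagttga
Galr2, chr10:106396013-106396072: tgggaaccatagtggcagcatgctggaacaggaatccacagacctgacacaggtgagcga
Galr3, chr7:117015319-117015378: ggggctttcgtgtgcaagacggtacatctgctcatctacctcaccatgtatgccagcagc
Oprl1, chr3:170872595-170872654: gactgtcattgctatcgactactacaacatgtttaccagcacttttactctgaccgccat
Oprm1, chr1:37568684-37568743: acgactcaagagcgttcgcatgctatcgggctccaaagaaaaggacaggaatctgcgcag

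The Galr1 probe covers 5443 bp of the genome with its 60 bases, so its match is split, while each of the other 4 lies in 1 uninterrupted stretch. Their GC content was 40.0% for Galr1, 55.0% for Galr2, 55.0% for Galr3, 43.3% for Oprl1 and 53.3% for Oprm1. Oprl1 and Oprm1 each had a further probe printed in 10 spots, at chr3:170874575-170874634 for Oprl1 and chr1:37588466-37588525 for Oprm1. Oprd1 (chr5:150979368-150979427, minus strand) and Oprk1 (chr5:14038275-14038334, minus strand) had 1 probe each. The level of a probe depends on its sequence as well as on the transcript, so no receptor's level was set against that of another.

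Detection was read first, as the mark of the scanner software for a spot well above background in the channel of a rat. Oprd1 and Oprl1 were detected in 4 of 4 COS and 4 of 4 CES rats. Galr2 was detected in 4 of 4 COS rats and in 3 of 4 CES rats, all but CES replicate 1. Galr1 was detected in 2 of 4 COS rats (replicates 2 and 4) and in 1 of 4 CES rats (replicate 2). Oprk1 was detected in 0 of 4 COS rats and in 2 of 4 CES rats (replicates 2 and 4). Oprm1 reached the mark in 2 of its 96 spot readings, 1 in COS replicate 2 and 1 in CES replicate 4. Galr3 reached it in 0 of 8 rats and is given no fold. The rats in which Galr1, Oprk1 and Oprm1 passed all carried Cy5, the channel in which the software marked 57.7 to 65.7% of all spots, against 45.1 to 53.9% in Cy3. The part of the dye in these detections was not tested.

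Per rat, 12 to 14 of the 29 receptor spots were well above background in COS and 11 to 15 in CES, with means of 12.8 ± 0.957 (SD, n = 4) and 13 ± 1.83 (SD, n = 4). The difference of 0.25 spots had an exact permutation p of 1 (two-sided, 0.0286 being the smallest that 4 against 4 rats allow). Most of these spots were the 10 of the Oprl1 probe at chr3:170874575-170874634, which were detected in 80 of 80 readings. The 2 other Oprl1 probes were detected in 1 of 8 rats (the probe printed above, in CES replicate 4) and in 0 of 8 rats. A probe listed under NP214280, described in the files as a truncated form of the nociceptin receptor, was detected in 8 of 8 rats.

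**Figure D1:**
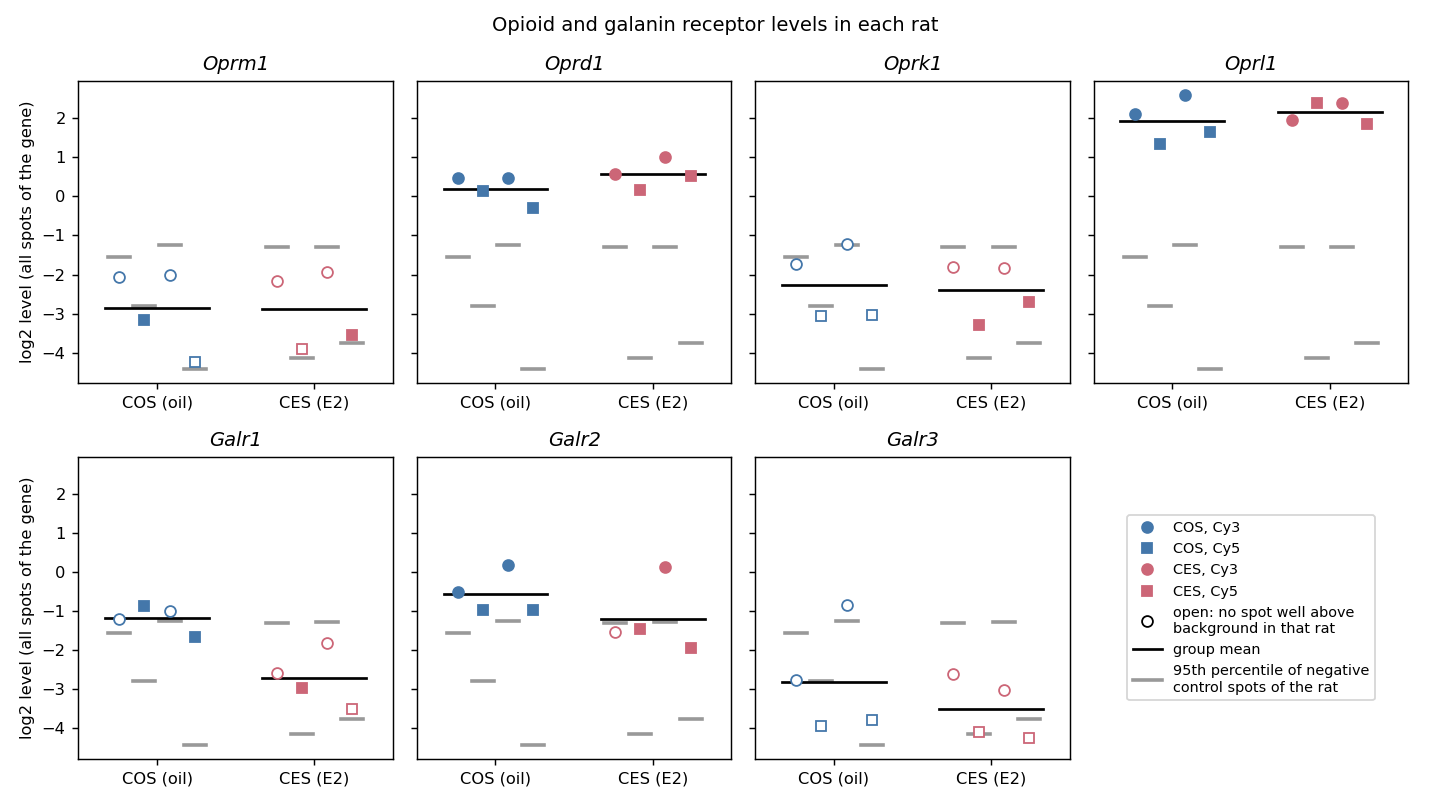
Level of each receptor in each rat on a log2 scale, where 0 is the median over the valid spots of the channel, averaged over all spots of the gene, by group and dye. Filled points had at least 1 spot well above background, black bars are group means, and grey bars are the 95th percentile of that rat's negative controls. Galr1 is the only receptor plotted whose COS and CES values do not overlap, and the CES values lie lower.

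Levels are log2 of the background-subtracted signal divided by the median valid signal of that channel. Valid spots had a foreground of at least 2 times background, and a gene entered the main comparison with the spots valid in all 8 rats. That left 5 receptors, Oprm1 with 1 of 12 spots, Oprl1 with 11 of 12, and Oprd1, Oprk1 and Galr2 with their single spot. Of these 5, limma called 0 between CES and COS, against 34.1% of the 21332 genes tested (28.3% lower and 5.8% higher in CES). None of the 5 reached an unadjusted p of 0.05 either, with limma or with the methods' t-test, while 45.2% of all genes did so with limma. Under this scaling the median difference of all genes was -0.25, so each receptor is also given from that median.

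Among the opioid receptors, Oprd1, whose product binds enkephalins, had log2 levels of 0.48, 0.13, 0.48 and -0.31 in COS replicates 1 to 4. In CES they were 0.58, 0.16, 1.00 and 0.53. The groups overlapped, with COS replicate 4 lowest and CES replicate 3 highest. The CES minus COS difference was 0.37 ± 0.18 (SE, limma, adjusted p = 0.137), which lay 0.63 above that median, called the overall median from here on. It was 0.31 between the Cy3 rats and 0.43 between the Cy5 rats. Oprd1 was called under 4 other scalings, loess with Aquantile (0.54, adjusted p = 0.0146), quantile (0.79, adjusted p = 0.0190), scaling on the spots that were valid in every rat, here called the commonly valid spots (0.77, adjusted p = 0.0221) and the deposited log2 table (0.76, adjusted p = 0.0204). These called 26%, 25.1%, 23.7% and 24.8% of all genes. After loess with Aquantile the CES rats lay wholly above the COS rats for 3 of the 5 receptors, Oprd1, Oprl1 and Oprm1, as for 21% of all genes.

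Oprl1, the receptor for nociceptin, gave log2 levels of 2.23, 1.45, 2.72 and 1.78 in COS and 2.08, 2.52, 2.49 and 1.98 in CES over its 11 valid spots. The COS rats spread more widely than the CES rats, whose values all fell inside the COS range under this scaling, though not after loess with Aquantile. The difference was 0.22 ± 0.24 (SE, limma, adjusted p = 0.495), or 0.48 above the overall median. It was -0.19 between the Cy3 rats and 0.64 between the Cy5 rats, so the directions were opposite in the 2 dyes. No alternative called Oprl1, and the smallest adjusted p among them was 0.0876, with loess and Aquantile.

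The 10 spots of the bright Oprl1 probe show the spread between spots within a channel, not the precision of a rat's level. Within a rat their log2 levels had an SD of 0.16 to 0.28, and 0.0965 once the mean of each spot position was removed as well. The SD between rats, each with its own channel and so with the dye included, was 0.55 in COS and 0.28 in CES. CES lay above COS in 9 of the 10 spots, with differences from -0.00367 to 0.49, but these spots share the same RNA and are not replicates. The Oprl1 probe printed above differed by -0.07 ± 0.34 (SE), the probe at chr3:170872073-170872132 by 0.41 ± 0.24 (SE) and the NP214280 probe by -0.02 ± 0.19 (SE), each fitted without the filter on valid spots and none called.

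**Figure D2:**
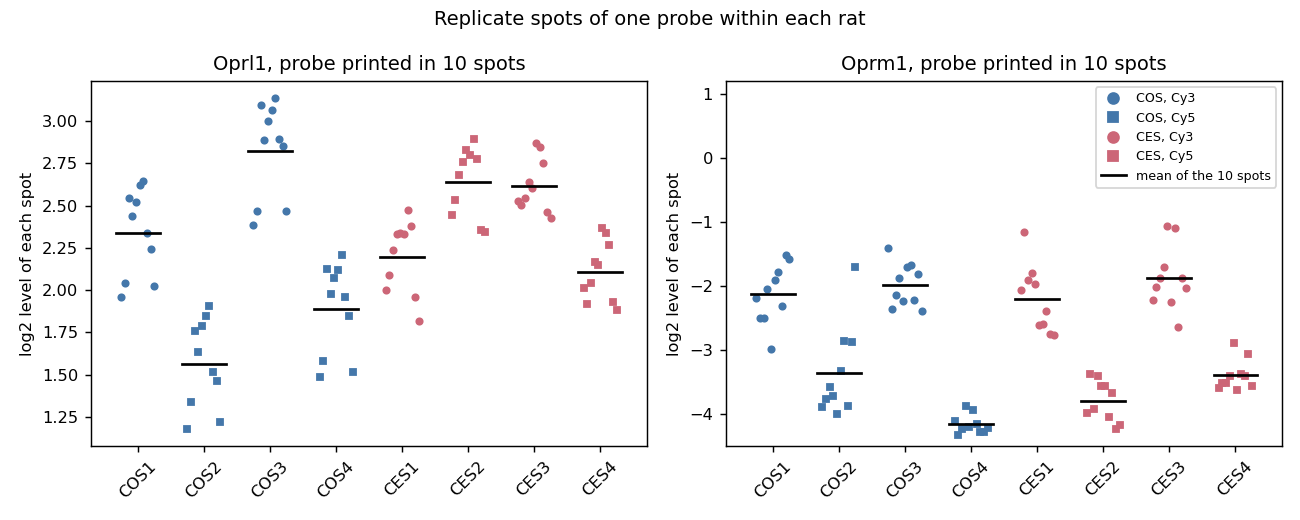
Log2 level of each of the 10 spots of 1 Oprl1 probe (left) and 1 Oprm1 probe (right) in each rat, with black bars for the mean of the 10 spots, circles for Cy3 and squares for Cy5. Oprl1 spots of COS replicate 2 lie wholly below those of COS replicate 3, whereas the spots of CES replicates 2 and 3 overlap, and the Oprm1 spots lie lower in every Cy5 rat than in every Cy3 rat on average.

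Oprm1, the receptor for morphine and beta-endorphin, was near background throughout. Its only spot valid in all rats read -2.05, -3.72, -1.88 and -3.88 in COS and -1.80, -3.41, -1.70 and -3.40 in CES, where the Cy5 rats (replicates 2 and 4) lay below the Cy3 rats in both groups. The difference of that spot was 0.30 ± 0.15 (SE, limma, adjusted p = 0.144). Over all 12 spots without the filter the difference was -0.02 ± 0.26 (SE, adjusted p = 0.963), and CES exceeded COS in 5 of the 10 spots of the replicated probe. The single spot was called under quantile normalization (0.59, adjusted p = 0.0451), scaling on the commonly valid spots (0.70, adjusted p = 0.0192) and the deposited table (0.66, adjusted p = 0.0180), while without the filter the 12 spots together were called under none of the scalings run. Without the filter 4 of those scalings called 0 to 2 of all 35199 genes. The Oprm1 probe within EU340246, a splice variant, and a probe listed under NP389986 were detected in 0 of 8 rats.

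Oprk1, the receptor for dynorphin, read -1.74, -3.07, -1.23 and -3.03 in COS and -1.80, -3.28, -1.82 and -2.70 in CES. The dyes again stood apart and the groups overlapped. Since no COS rat was well above background, COS has only a bound. The differences given for Oprk1 here and further below compare readings near background and are not read as a fold. With channels scaled by their median the fitted difference was -0.14 ± 0.20 (SE, limma, adjusted p = 0.620), which lay 0.12 above the overall median, and it changed sign with the scaling.

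Galr1, a receptor coupled to Gi, read lower in CES on its 1 spot, which was well above background in 3 of 8 readings. Its log2 levels were -1.20, -0.87, -0.99 and -1.65 in COS and -2.58, -2.98, -1.82 and -3.50 in CES, so the highest CES rat (replicate 3) lay below the lowest COS rat (replicate 4). The spot was valid in 4 of 4 COS and 3 of 4 CES rats, so that it failed the filter in CES replicate 1 and was tested only in the fit without the filter. There the mean fell from -1.18 ± 0.34 (SD, n = 4) in COS to -2.72 ± 0.71 (SD, n = 4) in CES. The difference was -1.54 ± 0.33 (SE, limma, adjusted p = 0.0371), or -1.30 from the overall median. In that fit 8.81% of 35199 genes were called, 7.66% were called lower in CES, and 12.4% had CES wholly below COS. The difference was -1.11 between the Cy3 rats and -1.97 between the Cy5 rats. The signal was higher than 95% of the negative control spots in 4 of 4 COS rats and in 2 of 4 CES rats.

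The Galr1 call was lost without any 1 of the COS rats (adjusted p from 0.0899 to 0.199) and without CES replicate 1 (adjusted p = 0.105). It was also lost under quantile normalization (-1.28, adjusted p = 0.0666), scaling on the commonly valid spots (-1.14, adjusted p = 0.103), normexp (-0.56, adjusted p = 1.00), the processed signal (-1.59, adjusted p = 0.317) and the methods' t-test (adjusted p = 0.161). These fits called 0 to 2 of the 35199 genes, with 1715 to 10139 at an unadjusted p under 0.05. It was not called in the Cy3 rats alone (adjusted p = 0.173, with 454 genes called) or in the Cy5 rats alone (adjusted p = 0.663, with 0 called). When each rat was left out, the difference ran from -1.75 to -1.29. With loess and Aquantile it was called with a difference of -0.40 (adjusted p = 0.0185, with 12.4% of all genes called), and with the replicate block at an adjusted p of 0.0468. In all 20 alternatives the direction stayed lower in CES.

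Galr2 is the galanin receptor that also couples to Gq. It read -0.50, -0.97, 0.19 and -0.97 in COS and -1.54, -1.46, 0.14 and -1.95 in CES. CES replicates 1, 2 and 4 lay below every COS rat, whereas CES replicate 3 lay between the 2 highest COS values. The difference was -0.64 ± 0.33 (SE, limma, adjusted p = 0.161), or -0.39 from the overall median. It was -0.54 between the Cy3 rats and -0.74 between the Cy5 rats. Without CES replicate 3, when 38.3% of all genes were called, the difference was -0.98 with an adjusted p of 0.00796, so that 1 rat decided the call. Without CES replicate 1, in which Galr2 was not detected, the difference was -0.32 (adjusted p = 0.478).

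Galr3 read -2.75, -3.93, -0.83 and -3.78 in COS and -2.62, -4.09, -3.02 and -4.25 in CES. The value of COS replicate 3 stood above the other 7, yet it was not marked as well above background. Since 0 of 8 rats detected it, no difference between the groups could be given. A probe listed under AF079843 was detected in 0 of 8 rats as well. Its position is chr5:157385150-157385209, on another chromosome than the Galr3 probe.

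**Figure D3:**
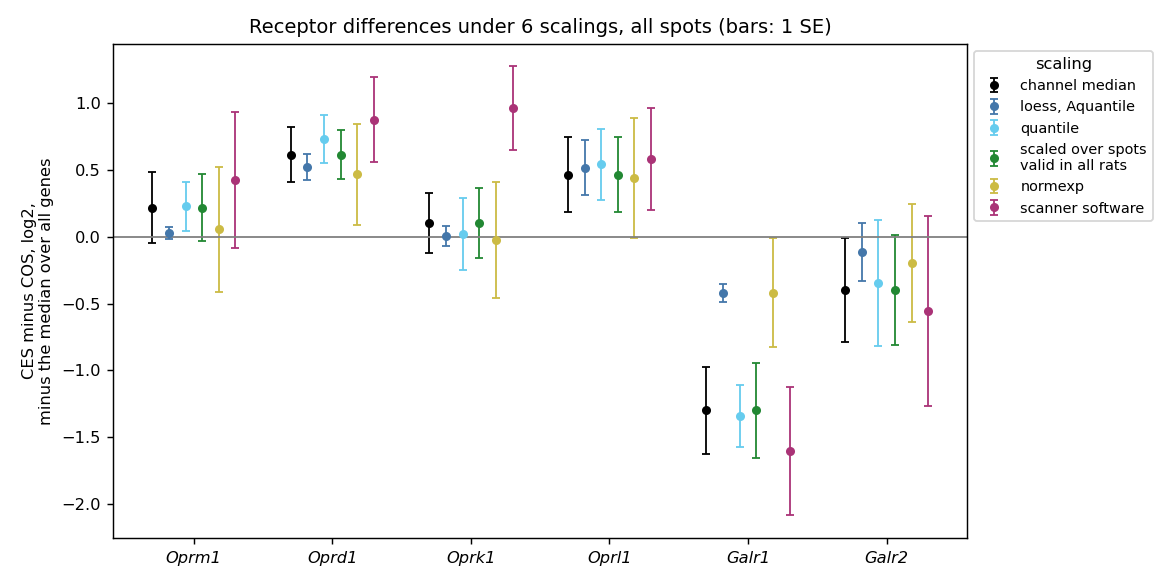
CES minus COS difference (log2) of 6 receptors, measured from the median difference of all genes, under 6 scalings without the filter on valid spots, with bars of 1 SE. Oprd1, Oprl1 and Oprm1 lie above 0 and Galr1 and Galr2 below 0 under all 6, Oprm1 by as little as 0.03, while Oprk1 lies between -0.02 and 0.96.

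Measured from the overall median, Oprd1 lay between 0.47 and 0.80 and Oprl1 between 0.45 and 0.52 over the 7 scalings that kept the filter. Galr2 lay between -0.63 and -0.14 over the same 7. Galr1 lay between -1.61 and -0.42 over the 6 scalings without the filter. Oprm1 lay between 0.07 and 0.83 with the filter and between 0.03 and 0.43 without it. The CES minus COS differences of Galr1 and Galr2 thus lay below that of the median gene in every one of these scalings. Those of Oprd1 and Oprl1 lay above it. The scalings process the same rats again, so their agreement is no further evidence, and Oprl1 and Galr2 were called under none of them. The shift of all genes that separates the scalings ran from -0.25 under the channel median to 0.15 when channels were scaled on the commonly valid spots.

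For each receptor in the main comparison, the genes with the most similar profile were found from the root-mean-square difference of the 8 log2 levels, each centred on its mean. The closest to Oprd1 were Gmppa (0.0424), AA996568 (0.0591) and Polr2j (0.0608). The closest to Oprl1 were Papd7 (0.106), Hpgd (0.125) and Ccdc82 (0.133). For Galr2 they were Yes1 (0.138), TC629812 (0.182) and Zw10 (0.183). For the dim receptors they were XM_228515 (0.0816), BQ529285 (0.117) and Sgsm2 (0.127) with Oprk1, and CB578432 (0.105), BF394271 (0.156) and TC624771 (0.164) with Oprm1. These likenesses describe 8 channels that share dyes and a slide.

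The ligand genes were lower in CES. Of the 7 genes listed as ligands, Spx was not found on the array under that name. Galp was well above background in 0 rats and was not tested. All 5 that were tested were called lower in CES, as were 28.3% of all genes. Their median difference was -1.90, against -0.25 over all genes, and all 5 were well above background in 8 of 8 rats. Gal, which encodes the ligand of the galanin receptors, read 5.45, 5.23, 5.30 and 4.61 in COS and 1.45, 3.76, 0.87 and 0.64 in CES. It fell by 3.47 ± 0.58 (SE, limma, adjusted p = 0.00452).

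Penk, the enkephalin precursor, read 6.62, 6.42, 6.39 and 5.74 in COS and 2.56, 5.56, 3.1 and 2.98 in CES, a difference of -2.74 ± 0.54 (SE, adjusted p = 0.00654). Pdyn, the dynorphin precursor, read 5.30, 5.69, 4.08 and 3.76 in COS and 2.11, 2.86, 2.96 and 3.28 in CES, a difference of -1.90 ± 0.43 (SE, adjusted p = 0.00994). Pnoc, the nociceptin precursor, read 4.67, 4.59, 5.18 and 4.71 in COS and 2.45, 4.19, 3.30 and 2.47 in CES, a difference of -1.68 ± 0.36 (SE, adjusted p = 0.00879). In these 4 genes every CES rat lay below every COS rat, as did 19.8% of all genes, and CES replicate 2 stood nearest to COS for Gal, Penk and Pnoc. Pomc, the precursor of beta-endorphin, was named after its values were seen because it is the remaining ligand called. It differed by -0.61 ± 0.21 (SE, adjusted p = 0.0474) with overlapping groups.

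Without CES replicate 2, the difference was -4.24 for Gal and -3.44 for Penk, and all 5 stayed called. Without COS replicate 3, when calls over all genes dropped from 7276 to 1171, only Gal was called (-3.29, adjusted p = 0.0485). Penk (-2.54, adjusted p = 0.0678), Pdyn (-1.99, adjusted p = 0.0552), Pnoc (-1.51, adjusted p = 0.0826) and Pomc (-0.45, adjusted p = 0.200) were not. Pomc was called in 3 of the 8 fits that left out a rat. The direction was the same for all 5 under the 6 other scalings. After loess and Aquantile, which called 26% of all genes, 3 of the 5 were called. Pnoc (-1.30, adjusted p = 0.0538) and Pomc (-0.19, adjusted p = 0.370) were not. None of the 5 was called with the processed signal, with the methods' t-test or in the Cy5 rats only.

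**Figure D4:**
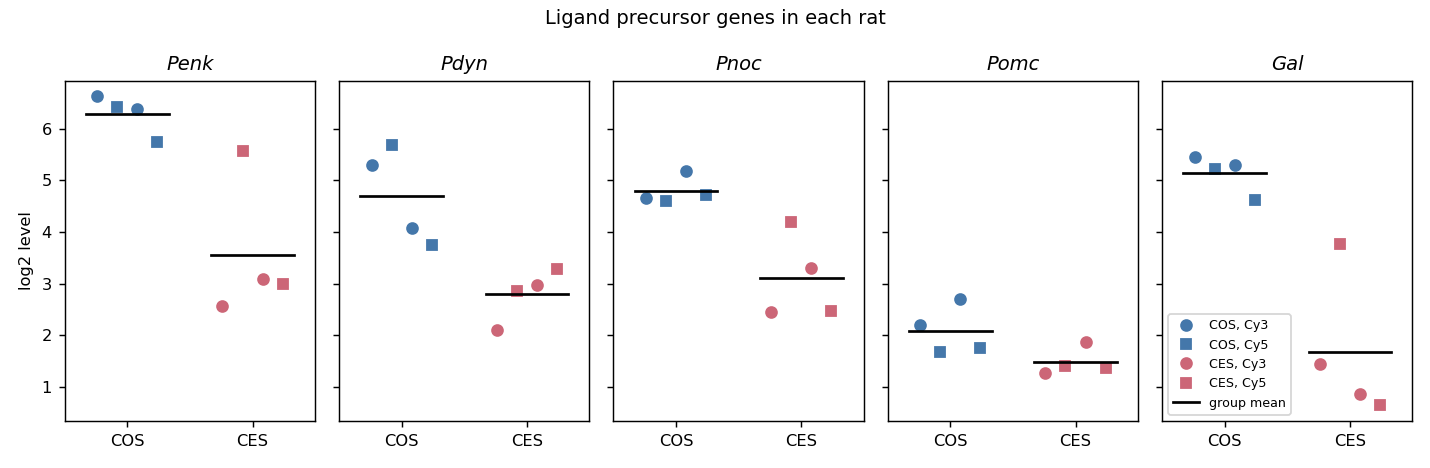
Log2 level of the 5 ligand precursor genes tested, in each rat by group, with circles for Cy3, squares for Cy5 and black bars for group means. CES lies wholly below COS for Penk, Pdyn, Pnoc and Gal, and CES replicate 2 is the highest CES rat for Penk, Pnoc and Gal.

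Further lists held genes that make or degrade the peptides, carry the receptor signal or end it. With the ligands, 45 of the 51 names on the 7 lists were tested, where some genes were listed under both an older and a newer name. Over all 7 lists 4 genes rose, 15 fell and 26 were not called, with a median difference of -0.32. The called share is to be read against 34.1% of all genes. After loess and Aquantile, 8 rose and 10 fell, so the balance of directions depended on the scaling. The 19 calls became 6 without COS replicate 3.

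Of the 11 peptide processing and degradation genes tested, 0 rose, 2 fell and 9 were not called. Pcsk1, a convertase that cuts neuropeptide precursors, differed by -1.44 ± 0.34 (SE, adjusted p = 0.0124), but was not called after loess and Aquantile (-0.87, adjusted p = 0.0669) and in 2 of the 8 fits that left out a rat. Ece1, a membrane endopeptidase that degrades peptides, differed by -1.80 ± 0.29 (SE, adjusted p = 0.00419).

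Of the 6 Gi, Go and Gq alpha subunit genes tested, 2 fell, 0 rose and 4 were not called. Gnai3 differed by -0.86 ± 0.19 (SE, adjusted p = 0.00976) and Gnai2 by -0.78 ± 0.18 (SE, adjusted p = 0.0115). For both, every CES rat lay below every COS rat, as for 19.8% of all genes. After loess and Aquantile Gnai2 was not called (-0.38, adjusted p = 0.0538).

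Of the 4 GIRK channel genes, 1 rose and 3 were not called. Kcnj6, which encodes the GIRK2 subunit, read 1.89, 1.33, 2.25 and 1.68 in COS and 3.34, 2.11, 3.55 and 3.12 in CES. Only CES replicate 2 lay inside the COS range. The difference was 1.24 ± 0.24 (SE, limma, adjusted p = 0.00577), and it was called in each of the 8 fits that left out a rat and after loess and Aquantile.

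Of the 7 receptor kinase and arrestin genes tested, 1 rose, 2 fell and 4 were not called. Grk5 differed by -1.16 ± 0.20 (SE, adjusted p = 0.00485) and Grk4 by -0.89 ± 0.18 (SE, adjusted p = 0.00720), both kinases that phosphorylate active receptors. Adrbk2, the kinase now called GRK3, differed by 0.78 ± 0.20 (SE, adjusted p = 0.0166) but was well above background in 2 of 8 rats. It was called in 4 of the 8 fits that left out a rat and not after loess and Aquantile (0.30, adjusted p = 0.0615).

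Of the 6 RGS genes, whose products speed the return of Gi and Go to rest, 2 fell, 0 rose and 4 were not called. Rgs4 differed by -2.18 ± 0.46 (SE, adjusted p = 0.00834) and Rgs19 by -0.56 ± 0.18 (SE, adjusted p = 0.0395). Rgs19 was called in 4 of the 8 fits that left out a rat and not after loess and Aquantile (-0.23, adjusted p = 0.198). Of the 6 genes of opioid-receptor partners and opioid-named genes tested, 2 rose, 2 fell and 2 were not called. Opcml, an adhesion molecule that binds opioids in the presence of acidic lipids, differed by 1.14 ± 0.21 (SE, adjusted p = 0.00564). Ogfr, the opioid growth factor receptor, differed by -1.13 ± 0.17 (SE, adjusted p = 0.00380), and Ogfrl1, its relative, by -1.02 ± 0.21 (SE, adjusted p = 0.00729). Gprasp1, which sorts internalized delta receptors, was named after its values were seen, as the remaining called gene of that list. It differed by 0.66 ± 0.23 (SE, adjusted p = 0.0486, and 0.0630 with the replicate block), and was called in 1 of the 8 fits that left out a rat.

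**Figure D5:**
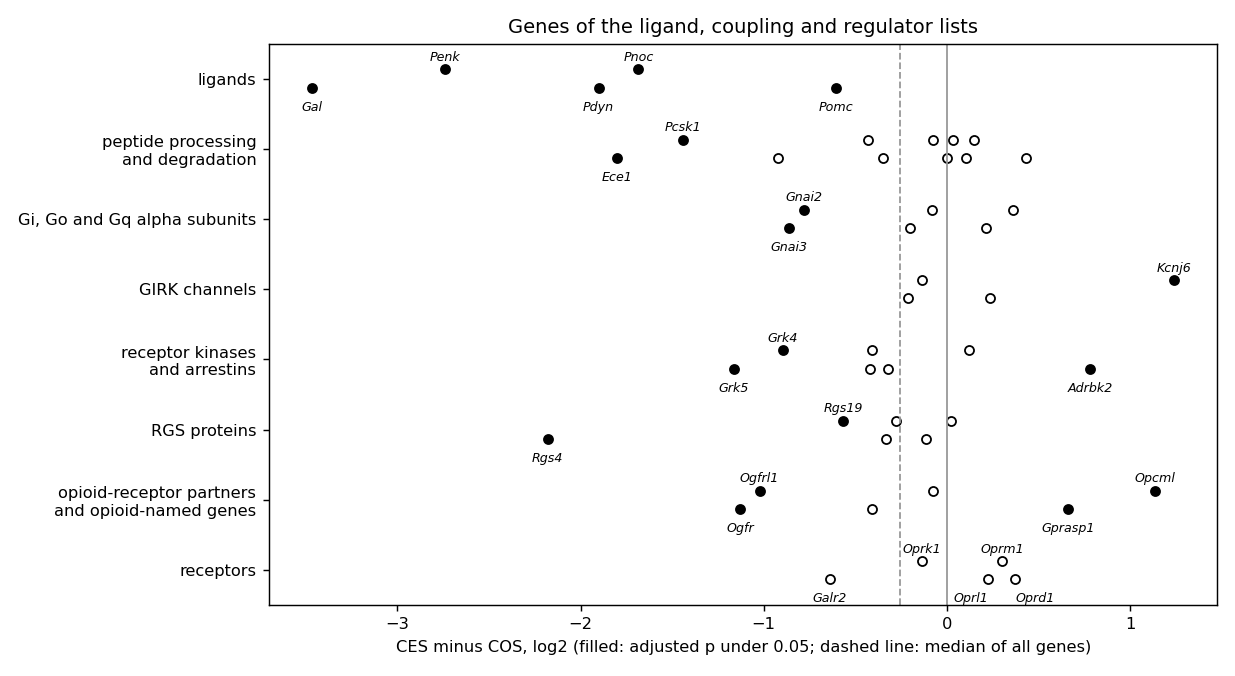
CES minus COS difference (log2) of each tested gene of the 7 lists and of the 5 receptors in the main comparison, filled where limma called it. The dashed line marks the median of all genes at -0.25. The 5 ligands lie to its left, and none of the 5 receptors is filled.

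Markers of the tissue were read beside these results. Their counts are to be read against 28.3% of all genes called lower and 5.8% called higher in CES. After loess and Aquantile 26% of all genes were called in either direction. Of the granule cell markers, C1ql2 and Calb1 were well above background in 8 of 8 rats, Dsp in 5, and Prox1 and Tdo2 in 0. Of the 4 tested, 3 were lower in CES (C1ql2 by -1.23, Dsp by -1.24 and Tdo2 by -0.57) and 0 were called after loess and Aquantile. The sums of the 4 ran from 3.65 to 4.48 in COS and from 3.14 to 3.68 in CES. Of the 3 hilar mossy cell markers Cartpt was lower, by -2.00, while Drd2 (-1.40) and Calb2 (0.53) were not called. The sums of the 3 ran from 2.90 to 3.62 in COS and from 2.74 to 3.88 in CES. Of the endothelial markers 2 of 3 tested were lower, with sums of 4.01 to 4.39 and 3.57 to 4.08, and Pecam1 in 0 rats. Iyd, listed for CA fields, was well above background in 0 rats. Of the tested markers of CA fields, 3 of 4 were higher in CES, of which Fibcd1 was well above background in 2 of 8 rats. The sums of the 4 ran from 2.83 to 3.38 in COS and from 3.28 to 4.23 in CES. Of the microglia and macrophage markers 3 of 5 were lower, with sums of 4.91 to 5.53 in COS and 4.05 to 4.6 in CES. Of the interneuron markers 3 of 8 tested were lower, with sums of 8.84 to 9.39 and 7.86 to 8.76, and Lhx6 in 0 rats. Of the astrocyte markers 2 of 5 were higher and 1 was lower. Of the thalamus and habenula markers 1 of 6 tested was lower, and of the oligodendrocyte markers 0 of 5 were called. Choroid plexus markers had 0 of 4 called, but their sums spread from 3.70 to 9.26 in COS and from 4.00 to 7.60 in CES. After loess and Aquantile 3 CA field, 2 interneuron and 1 astrocyte markers were higher, as was Calb2, listed for mossy cells and for thalamus. Lower there were 2 interneuron and 2 microglia markers, with 1 each of mossy cells and endothelium. The part of these markers in the receptor and ligand differences was not tested.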

How the data were processed

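The authors deposited scanner output of Agilent Feature Extraction 10.7.3.1, with spot and local background intensity in both channels, a processed intensity that the software had background-corrected and dye-normalized, and its mark for spots well above background. They also deposited a log2 table, whose columns equal log2 of the background-subtracted median signal of a channel, centred on the median. The intensity columns were used as main values. Probe names and rn4 positions are those of the files, and sequences were read from them.

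From the mean signal the background median was subtracted, and the result was scaled by the channel's median valid signal, averaged over the spots of a name that passed in all 8 rats, and log2-transformed. The study's further iterative renormalization, by its own algorithm, was not run. CES minus COS was fitted in R 4.3.3 with limma 3.58.1, taking dye as fixed and array as a random block (statmod 1.5.0). P-values were two-sided and adjusted across all genes by Benjamini-Hochberg, at a threshold of 0.05. The fit was tested on simulated data of the same layout with 200 genes changed, far fewer than were called here. The simulated noise was independent between rats, with no array effect and no shift of all genes. Its count of false calls therefore does not carry over to the real data. The main fit recovered 57% of log2 changes of size 1 and 94% of size 2, with 13 false calls among 164. The fit without the filter recovered 12% and 60%, so a receptor that was not called may still differ. The number of rats limits the precision, and the median SE of a difference was 0.20. Every array held 1 group, so array and group cannot be fully told apart. In the main fit the random block took an array correlation of -0.0064, and 7276 genes were called with it against 7215 without it. The array correlation was 0.57 with normexp and 0.72 with the processed signal, where 586 and 0 genes were called.

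The members and lists were chosen with earlier results of these data known. Named are the 7 receptors, the called genes of the lists (the 4 of smallest adjusted p where more than 4 were called) and the 3 genes nearest to each receptor. Deviations from the group mean correlated between rats with the same replicate number at 0.21 to 0.34, and at -0.06 to -0.04 once the dye was removed, so the number was also fitted as a block in place of the dye. Alternatives covered background correction (normexp, offset 50), normalization, filter, dye, array block, probe choice, names by accession, the deposited table, the methods' t-test (variances not pooled), and leaving out each rat. Those without the filter together with a second choice, the probes under other names and the removal of outlier spots were added after seeing the data. Galr3 was not compared because no rat detected it. An item of the lists is not reported here.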

Additional observations from a re-analysis of the deposited data

How the results depend on the processing

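Of 21332 genes, 7276 were called, and 586 with normexp, 0 with the processed signal (1969 at an unadjusted p under 0.05), 3100 without the filter, 2 in the Cy5 rats only and 0 with the methods' t-test (6103 unadjusted). Leaving out each rat gave 1171 (COS replicate 3) to 8837 calls, with 2988 without CES replicate 1 and 4145 without COS replicate 1. The share of calls that were higher in CES was 17.0%, and 59.9% after loess and Aquantile, 59.8% after quantile normalization, 66.1% when scaled on the commonly valid spots and 63.0% in the deposited table.

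The 0 receptors called became 1 with loess and Aquantile, 2 with quantile normalization, 2 with scaling on the commonly valid spots, 2 with the deposited table and 1 without the filter, and 0 to 1 when each rat was left out. The 19 pathway calls became 6 with normexp, 0 with the processed signal, 12 without the filter, 0 in the Cy5 rats only and 0 with the methods' t-test, and 6 to 24 when each rat was left out. Counting spots valid by 2 times background, the receptors differed by -1.75 spots per rat (exact permutation p = 0.429).

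Several differences that were not called changed sign. Oprm1 was -0.0537 with normexp and -0.0234 without the filter. Over its 12 spots it was 0.0422 with loess and Aquantile, 0.29 with quantile normalization, 0.44 with the processed signal and 0.38 when scaled on the commonly valid spots, and it ran from -0.23 to 0.19 when each rat was left out. Oprk1, with and without the filter, was 0.98 with the processed signal, 0.0201 with loess and Aquantile, 0.0822 with quantile normalization, 0.26 when scaled on the commonly valid spots and 0.0534 in the Cy5 rats only. It was 0.29 in the deposited table, and -0.29 to 0.00415 with the filter and -0.29 to 0.00434 without it when each rat was left out. Oprl1 was -0.19 in the Cy3 rats only with the filter and -0.19 without it, -0.0720 for its probe at chr3:170872595-170872654 and -0.0235 for the NP214280 probe. The causes were not tested.

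With the replicate block, 6762 of the 7276 calls remained and 0 receptors were called in the main comparison. Of the pathway genes 18 of 19 kept their call, and no call but that of Gprasp1 was lost. Oprd1 was higher and Galr2 lower in CES under every alternative run. Receptors not above 95% of the negative control spots in some rats, as Galr1, Galr2, Oprk1, Oprm1 and Galr3 were, are limited by signal over background.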
